A study of Mus musculus with 13 samples.

Results

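The oligodendrocyte lineage genes described here are 9 genes, Pdgfra, Olig1, Olig2, Sox10, Gpr17, Bcas1, Enpp6, Mbp and Cnp, taken by the symbols of their Ensembl IDs from a table of 55487 genes, and all 9 were found and passed the filter on low counts. RNA was sequenced from cells that magnetic beads against the surface protein CD11b had pulled out of whole, unperfused mouse brain, freed of meninges, on postnatal day 4. The bead sort is meant to give microglia, the resident macrophages of the brain. Pups labelled CON, taken here as controls, were set beside pups labelled MIA, taken as offspring of dams with maternal immune activation, with 5 retained libraries per group, and 3 more (CON 6, MIA 6, MIA 7) are titled as excluded. Those abbreviations are all that the labels give, and the sources used here do not state the agent the dams received, the mouse strain, the sex or the litter, nor whether libraries came from single or pooled pups, so p-values measure the spread between these libraries.

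Oligodendrocytes wrap axons in myelin. They arise from precursors that carry the growth factor receptor PDGFRA and depend on the transcription factors OLIG1, OLIG2 and SOX10. On leaving the cell cycle, precursors switch on genes such as Gpr17, then Bcas1 and Enpp6 as they become newly formed oligodendrocytes. Myelin genes such as Mbp come late, and Cnp encodes an enzyme found in myelin. None of these genes defines a microglial cell, and in the mouse brain the first days after birth are a time of many precursors and little myelin.

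The sorted cells carried the RNA of microglia far above that of the oligodendrocyte lineage. All 12 genes of a microglial marker list (among them P2ry12, Tmem119, Cx3cr1, Csf1r, Sall1, Fcrls, Siglech, Itgam, C1qa, Aif1 and Trem2) were measured, and their summed level was 24330 to 31042 CPM in the retained controls and 15989 to 20525 CPM in the retained MIA libraries. CPM are counts scaled for library size, here with TMM factors. The 9 lineage genes together made 153 to 210 CPM in CON and 150 to 243 CPM in MIA. Of this, Cnp alone made 101 ± 20.2 CPM in CON and 79.2 ± 10.1 CPM in MIA (SD, n = 5 each). These sums are not scaled for gene length. Library totals lay between 25387055 and 35593541 counts and were higher in the retained controls (31836808 ± 3307865 against 27563252 ± 1962076, SD, n = 5 each; 2-sided exact permutation p = 0.0476). The upper limit for a gene with 0 counts, 3 counts, came to 0.0874 to 0.117 CPM and covers counting error only.

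In the MIA libraries 1 of the 9 genes changed: Pdgfra, the precursor receptor, was 2.14-fold higher. The other 8 did not pass the test, which was edgeR's quasi-likelihood test with Benjamini-Hochberg adjustment at 0.05 over 15511 genes. Log2 fold changes are MIA minus CON, ± the SE, throughout. Over all genes tested 10.3% passed, 5.75% higher and 4.58% lower in MIA, so 1 of 9 is close to that share. The fitted difference lay above 0 for 7 of the 9 genes and below 0 for the myelin genes Mbp and Cnp, against 48.9% of all genes above 0. At an unadjusted p under 0.05 stood 4 of the 9 (Pdgfra, Olig1, Olig2 and Cnp), against 22.7% of all genes. All MIA libraries lay above all controls in 1 of the 9 and below them in none, against 5.59% and 4.36% of all genes, or 9.95% for either direction. The median log2 fold change of the 9 was 0.96, beside -0.01 over all genes tested. In bulk RNA, more cells of the lineage and more of its RNA per cell cannot be told apart.

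**Figure D1:**
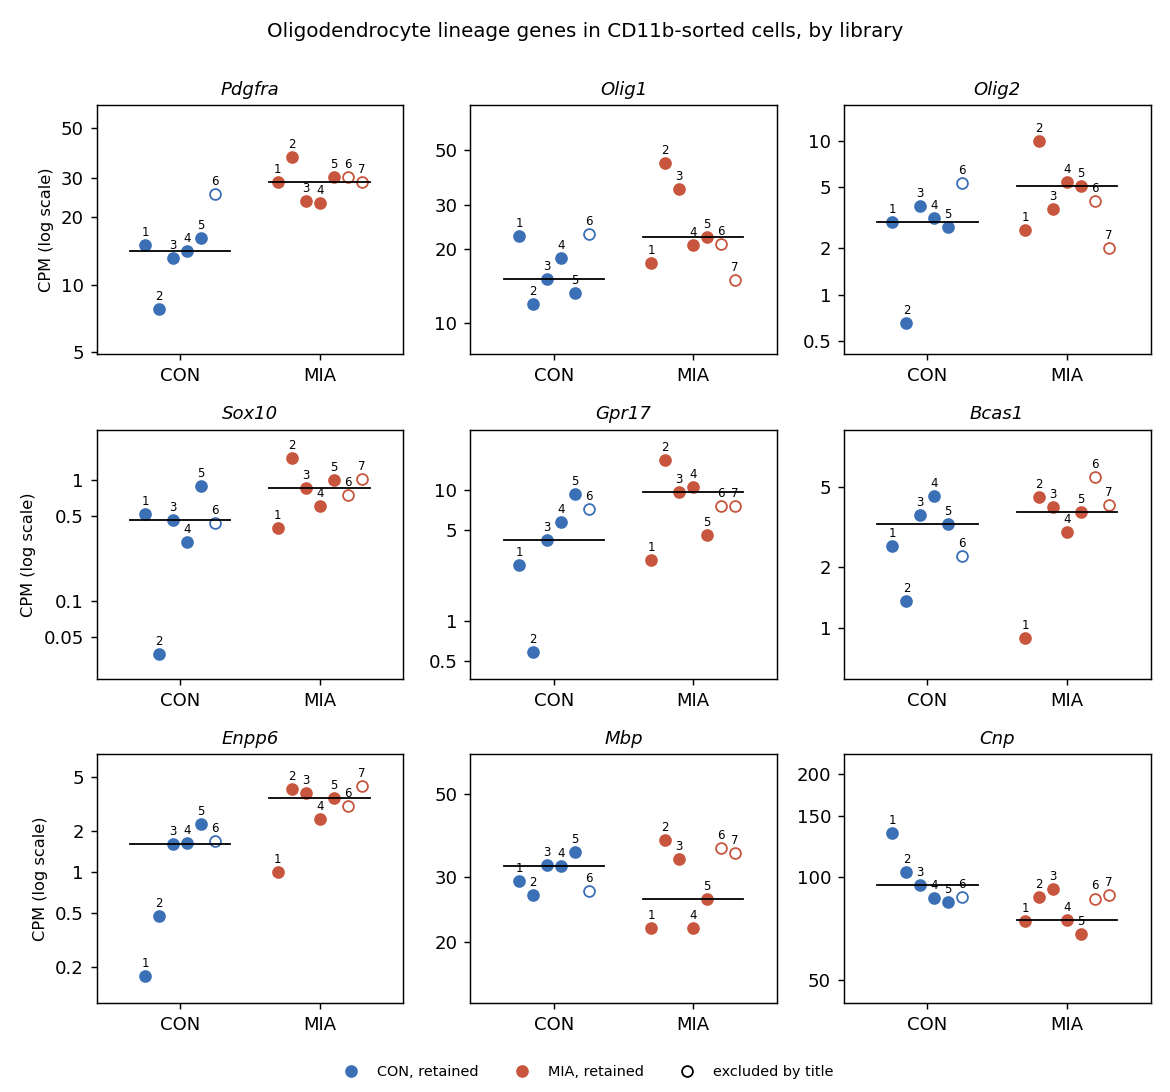
CPM of each gene (y axis, log scale) in each library, labelled by its replicate number. Filled points are retained libraries, open points those excluded by title, and the bar is the median of the 5 retained libraries. Pdgfra is the gene whose retained groups do not overlap, from 7.83 to 16.2 CPM in CON and 23.2 to 37.0 CPM in MIA.

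Pdgfra encodes the receptor through which platelet-derived growth factor keeps oligodendrocyte precursors dividing and alive. It was at 15.1, 7.83, 13.2, 14.2 and 16.2 CPM in CON 1 to CON 5 and at 28.6, 37.0, 23.5, 23.2 and 30.1 CPM in MIA 1 to MIA 5. All 5 MIA libraries lay above all 5 controls. The group levels were 13.3 ± 3.25 and 28.4 ± 5.65 CPM (SD, n = 5 each), and the fitted log2 fold change was 1.10 ± 0.19 (edgeR adjusted p = 0.00263). The excluded control library CON 6 stood at 25.4 CPM, above every retained control and inside the MIA range, and MIA 6 and MIA 7 were at 30.3 and 28.7 CPM. With all 13 libraries the log2 fold change was 0.91 ± 0.20 (edgeR adjusted p = 0.0291). With all 13 except CON 1 and CON 2, which stood apart from the rest in genes induced by tissue dissociation, it was 0.74 ± 0.17 and the call was lost (edgeR adjusted p = 0.0611). In the 10 fits that left out 1 retained library it lay between 0.95, without CON 2, and 1.17, without CON 5, and passed each time.

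Markers of several other cells also differed between the retained groups. Pdgfra is also expressed by fibroblasts of the meninges and vessel walls, and of 9 fibroblast genes (Col1a1, Col1a2, Col3a1, Dcn, Lum, Slc6a13, Dpep1, Foxc1 and Twist1) 8 were tested and 4 rose. Col1a1, a chain of type I collagen, rose by a log2 fold change of 0.53 ± 0.11 (edgeR adjusted p = 0.00951) and Foxc1, a transcription factor gene of the meninges, by 1.98 ± 0.39 (edgeR adjusted p = 0.00593). Col1a2 and Dcn also rose. Col3a1, the most abundant of the list, did not pass (0.37 ± 0.11, edgeR adjusted p = 0.0502), with all 5 MIA libraries above all 5 controls. Of the fibroblast genes 5 stood at an unadjusted p under 0.05, 5 passed with DESeq2 and 4 with limma-voom. The summed fibroblast level was 311 to 361 CPM in CON, 402 to 556 CPM in MIA and 438 CPM in the excluded CON 6. All 10 endothelial genes rose (by 1.29 for Pecam1 to 1.46 for Esam among Flt1, Esam, Pecam1 and Kdr, with Cldn5 the most abundant), with a summed level of 896 to 1422 CPM in CON, 2562 to 4335 CPM in MIA and 2710 CPM in CON 6. Of 8 neural progenitor genes 7 were tested and 2 rose, Sox11 and Dlx2, while Nes did not pass, and the sums were 76.2 to 90.7 CPM in CON, 113 to 155 CPM in MIA and 111 CPM in CON 6. Of 12 neuronal genes 6 rose, among them Stmn2, Tubb3, Snap25 and Syn1. The neuronal sums were 61.1 to 82.1 CPM in CON, 113 to 170 CPM in MIA and 77.6 CPM in CON 6. In the excluded MIA 6 and MIA 7 the neuronal sums were 82.5 and 71.1 CPM and the endothelial sums 2170 and 2380 CPM. Fibroblast sums in MIA 6 and MIA 7 were 544 and 546 CPM, and neural progenitor sums 119 and 101 CPM. None of the 8 mural genes (Rgs5 and Vtn the most abundant) or the 10 astrocyte genes (Gja1 and Slc1a3) passed with edgeR (3 and 1 at an unadjusted p under 0.05; 1 and 0 with DESeq2 and with limma-voom), and their sums overlapped between groups (355 to 649 against 493 to 860 CPM, and 309 to 957 against 460 to 807 CPM). In the excluded CON 6, MIA 6 and MIA 7 the mural sums were 1180, 1000 and 1070 CPM, above every retained library. The astrocyte sums there were 543, 620 and 443 CPM. All 12 microglial genes fell, for example Siglech, Itgam, C1qa and Csf1r by 0.64, 0.60, 0.62 and 0.55 on the log2 scale. No gene of these lists was at 0 in every library. The part of these cells in the difference in Pdgfra was not tested.

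**Figure D2:**
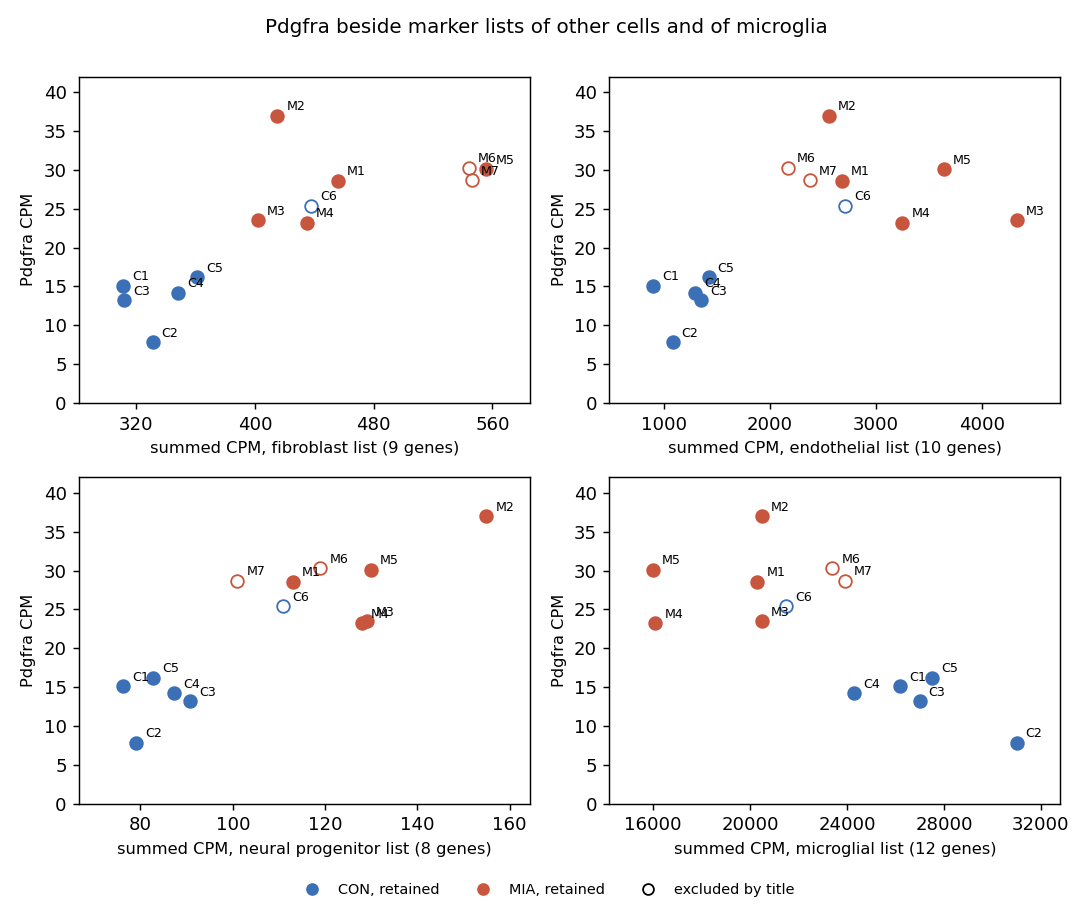
Pdgfra CPM (y axis) against the summed CPM of 4 marker lists (x axes), 1 point per library, labelled C for CON and M for MIA with the replicate number. Retained libraries are filled and excluded ones open. The excluded control C6, at 25.4 CPM of Pdgfra, lies among the MIA libraries in the fibroblast and endothelial panels. In the neural progenitor and microglial panels C6 lies between the retained controls and the retained MIA libraries, at 111 and 21500 CPM.

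Stretches just upstream of 2 genes are shown, Pdgfra as the gene that passed and Cnp as the gene with the lowest fitted difference. They come from RefSeq on GRCm38.p6, whose promoter table matched 4 of the 9 genes (Pdgfra, Olig2, Enpp6 and Cnp). Both are on the plus strand, Pdgfra at chr5:75152001-75152250 and Cnp at chr11:100574689-100574903, and end before the first annotated transcript start. Capitals mark matches on either strand to CANNTG, the E-box that basic helix-loop-helix factors such as OLIG2 bind, and to ACAAAG, a core that SOX factors bind; the motifs share no base in these stretches.
Pdgfra: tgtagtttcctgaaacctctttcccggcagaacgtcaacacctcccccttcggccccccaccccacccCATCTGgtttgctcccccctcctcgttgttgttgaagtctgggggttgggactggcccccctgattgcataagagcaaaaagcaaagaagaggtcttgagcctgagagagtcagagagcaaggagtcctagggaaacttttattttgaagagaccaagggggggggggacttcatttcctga
Cnp: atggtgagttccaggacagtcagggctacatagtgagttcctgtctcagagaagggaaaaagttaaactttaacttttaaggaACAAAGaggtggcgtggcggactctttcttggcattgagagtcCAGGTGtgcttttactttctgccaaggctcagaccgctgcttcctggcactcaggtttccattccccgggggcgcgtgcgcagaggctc
In the 250 bases before the RefSeq start, Pdgfra held 1 E-box, beginning 182 bases before it, and no ACAAAG. Cnp held 1 E-box at 124 bases and 1 ACAAAG at 167 bases before its start, and Olig2 and Enpp6 held neither. Of 32851 such windows over all genes, 66.2% held CANNTG and 16.5% held ACAAAG. These matches describe the letters only.

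Olig1, which promotes oligodendrocyte maturation, was at 22.6, 12, 15.1, 18.3 and 13.3 CPM in CON 1 to CON 5 and at 17.6, 44.5, 34.9, 20.8 and 22.4 CPM in MIA 1 to MIA 5. The groups overlapped, since CON 1 was above 3 of the MIA libraries, while MIA 2 and MIA 3 lay above every control. The log2 fold change was 0.79 ± 0.26 (edgeR adjusted p = 0.0833) and did not pass. Olig1 did pass with DESeq2 (adjusted p = 0.0186) and with edgeR without CON 1 (adjusted p = 0.0393) or without MIA 1 (adjusted p = 0.0430), and over all alternatives the adjusted p ran from 0.0186 to 0.329.

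Olig2 specifies the lineage and is also made by some neural progenitors and young astrocytes. It was at 2.97, 0.655, 3.76, 3.13 and 2.75 CPM in CON 1 to CON 5 and at 2.62, 9.96, 3.60, 5.41 and 5.08 CPM in MIA 1 to MIA 5. MIA 2 was highest and CON 2 lowest, and the other 8 libraries lay between 2.62 and 5.41 CPM. The difference, a log2 fold change of 1.00 ± 0.44 (edgeR adjusted p = 0.191), did not pass. Olig1 and Olig2 are neighbours in the genome.

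Sox10, which keeps cells in the lineage and drives myelin genes, was near the limit of detection. It had 15, 1, 16, 10 and 28 counts in CON 1 to CON 5 and 12, 39, 25, 16 and 28 counts in MIA 1 to MIA 5. That is 0.0364 to 0.884 CPM in CON and 0.397 to 1.51 CPM in MIA, with CON 2, at 1 count, under the level of 3 counts. The log2 fold change was 0.96 ± 0.64 (edgeR adjusted p = 0.417).

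Gpr17 encodes a receptor found for a short time in committed precursors. Its level was 2.69, 0.582, 4.14, 5.68 and 9.37 CPM in CON 1 to CON 5 and 2.91, 16.9, 9.72, 10.6 and 4.55 CPM in MIA 1 to MIA 5. CON 5 was above MIA 1 and MIA 5, and MIA 2 alone was above 11 CPM. The log2 fold change of 0.98 ± 0.64 (edgeR adjusted p = 0.419) did not pass.

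Enpp6, a phosphodiesterase gene switched on in newly formed oligodendrocytes, had the largest fitted difference of the 9 genes and did not pass. It was at 0.173, 0.473, 1.6, 1.64 and 2.24 CPM in CON 1 to CON 5 and at 0.994, 4.03, 3.77, 2.44 and 3.49 CPM in MIA 1 to MIA 5. Of the MIA libraries, 4 lay above every control and MIA 1 lay below CON 3, CON 4 and CON 5. CON 1 and CON 2, with 5 and 13 counts, were far below the other 3 controls. The log2 fold change was 1.26 ± 0.58 (edgeR adjusted p = 0.224), and 0.67 at the lowest of the alternatives.

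Bcas1 marks oligodendrocytes that are starting to make myelin. It was at 2.55, 1.35, 3.61, 4.47 and 3.28 CPM in CON 1 to CON 5 and at 0.894, 4.45, 3.94, 2.97 and 3.74 CPM in MIA 1 to MIA 5. The lowest library of all was MIA 1, and the other 4 MIA libraries lay within the control range. The log2 fold change of 0.07 ± 0.41 (edgeR adjusted p = 0.952) changed sign in 6 of 20 alternatives.

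Mbp encodes myelin basic protein, and the same locus also gives golli transcripts, which immune cells make; counts per gene do not tell them apart. Mbp was at 29.2, 26.8, 32.2, 32.1 and 35.1 CPM in CON 1 to CON 5 and at 21.9, 37.7, 33.5, 21.9 and 26.1 CPM in MIA 1 to MIA 5. The MIA libraries reached further both up and down, with 3 below every control and 1 above. The log2 fold change was -0.14 ± 0.15 (edgeR adjusted p = 0.665).

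Cnp, which encodes a phosphodiesterase of myelin, was the member with the highest level per length of gene. It was at 134, 103, 94.8, 86.5 and 84.1 CPM in CON 1 to CON 5 and at 74.0, 87.3, 92.3, 74.5 and 68.1 CPM in MIA 1 to MIA 5. MIA 1, MIA 4 and MIA 5 lay below every control, and all 5 MIA libraries lay below the control median. With a log2 fold change of -0.34 ± 0.13 (edgeR adjusted p = 0.123) it did not pass. The difference was -0.17 ± 0.10 without CON 1 and CON 2 (edgeR adjusted p = 0.319), the controls with the most Cnp. All 12 microglial genes fell in MIA, and which cells the RNA of Cnp came from was not tested.

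**Figure D3:**
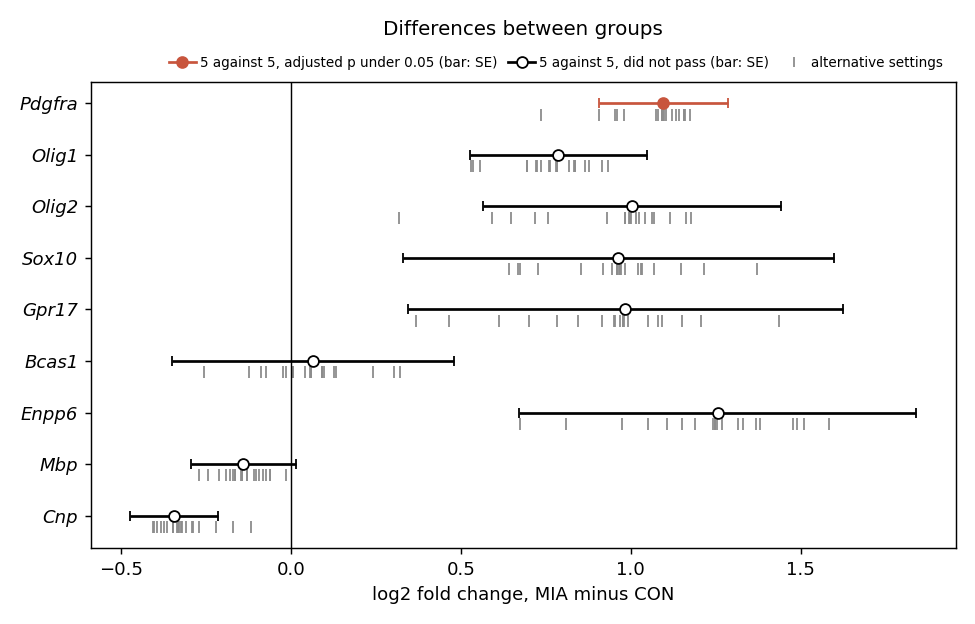
Log2 fold change, MIA minus CON, of each gene (x axis) from edgeR on 5 against 5 libraries, with bars for the SE. The filled point passed and open points did not, and grey ticks are the values under the alternative settings. Ticks of Bcas1 fall on both sides of 0, those of Mbp and Cnp below 0, and those of the other 6 genes above 0.

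Levels of different genes can be compared only per length, here as CPM per kilobase of merged exons in GENCODE M21, which may not be the authors' annotation. In CON the order was Cnp (27.6 ± 5.54), Olig1 (7.52 ± 1.97), Mbp (3.67 ± 0.371), Pdgfra (1.33 ± 0.324), Olig2 (1.05 ± 0.465), Gpr17 (0.865 ± 0.638), Bcas1 (0.809 ± 0.311), Enpp6 (0.191 ± 0.136) and Sox10 (0.145 ± 0.102), as SD with n = 5 each. The libraries of neighbours overlapped from Pdgfra down to Bcas1 and between Enpp6 and Sox10, and did not overlap between Cnp, Olig1, Mbp and Pdgfra. The MIA libraries gave the same order, from 21.8 ± 2.78 for Cnp to 0.285 ± 0.139 for Sox10. There Mbp (3.33 ± 0.840) and Pdgfra (2.84 ± 0.563) overlapped, and so did Cnp and Olig1 (13 ± 5.24). For scale, Csf1r, the receptor gene on which microglia depend for survival, was at 1201 CPM per kilobase in CON.

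Single libraries were high or low in several genes at once. The shares of all genes with such ranks are not given here, so the counts below are not read as particular to the lineage. CON 2 was the lowest of the 5 controls in 7 of the 9 genes, the exceptions being Enpp6 and Cnp. MIA 2 was the highest of the 5 MIA libraries in 8 of the 9 genes, Cnp being the exception, and the highest of all 13 in 6. MIA 1 was the lowest of its group in 6. Of the excluded libraries, CON 6 lay above the retained controls in Pdgfra, Olig1 and Olig2 and within their range in the other 6 genes. MIA 6 lay within the retained MIA range in 8 genes. MIA 7 did so in 6, with Olig1 and Olig2 below it, at 15 and 2.02 CPM, and Enpp6 above it, at 4.28 CPM.

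**Figure D4:**
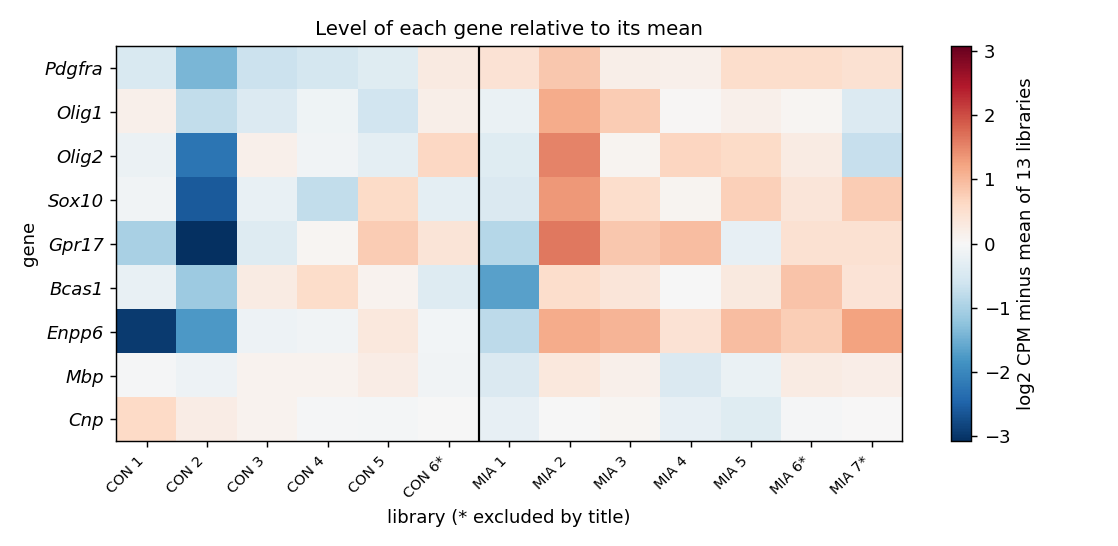
Log2 CPM of each gene (rows) in each library (columns) minus that gene's mean over the 13 libraries, as colour, with red above and blue below the mean. Asterisks mark excluded libraries and the line parts CON from MIA. CON 2 is blue in most rows and MIA 2 red in most, while Mbp and Cnp vary little.

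With the mean of CON-labelled and of MIA-labelled libraries taken out, the members went together to different degrees over the 13 libraries, all made by 1 protocol. These correlations of log2 CPM are descriptions. Pearson's r was 0.82 for Sox10 with Gpr17 (Spearman's rho 0.52), 0.77 for Olig2 with Gpr17 (rho 0.60) and 0.75 for Bcas1 with Mbp (rho 0.81). It was 0.74 for Pdgfra with Olig2 (rho 0.42), 0.706 for Olig2 with Sox10 (rho 0.43) and 0.705 for Olig1 with Olig2 (rho 0.66). Cnp went with no other member, with r from -0.52 for Enpp6 to 0.32 for Mbp. Of all genes tested, those most like a member by this measure included Cnksr3 and Ube2q1 for Bcas1 (r = 0.88 and 0.87). Mobp, another myelin gene, stood between Phf13 and Actg2 for Gpr17 (r from 0.89 to 0.92), and Mag, which encodes a myelin adhesion protein, came after Pgls and Panx1 for Mbp (r from 0.90 to 0.92). For Pdgfra these were Sgsm2, Grik1 and Farp1 (r from 0.84 to 0.92), for Olig1 Plppr1, Sbk1 and Ncs1 (0.91 to 0.92), and for Olig2 Ptprs, Ubqln2 and Mrpl38 (0.89 to 0.92). For Sox10 they were Cep131, Phf13 and Ankrd13c (0.89 to 0.91), for Enpp6 Nol7, Zyx and Noc2l (0.90 to 0.91), and for Cnp Mgrn1, Tmem52 and Pag1 (0.917 to 0.945). Spearman's rho was lower for some, at 0.41 for Cnksr3 with Bcas1, 0.60 for Grik1 with Pdgfra and 0.64 for Phf13 with Sox10. It reached 0.91 for Phf13 with Gpr17 and for Mgrn1 with Cnp.

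Further genes of the lineage and of signals that act on it numbered 59, of which 52 were tested. Of these, 5 rose and 1 fell in MIA, against 5.75% higher and 4.58% lower over all genes, so that the 6 of 52 are close to the overall 10.3%. Their median log2 fold change was 0.36, beside -0.01 over all genes tested.

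Of 15 precursor genes 14 were tested and none passed with edgeR, with 1 at an unadjusted p under 0.05, 1 passing with DESeq2 and 0 with limma-voom. Ptprz1, a receptor phosphatase shared with astrocytes, was at 85.1 ± 59.2 CPM in CON and 125 ± 42.4 CPM in MIA (SD, n = 5 each). Bcan, a matrix proteoglycan, was at 34.2 ± 12.2 and 54.7 ± 17.3 CPM. Bcan passed with DESeq2 and with edgeR without CON 1, and Ptprz1 without CON 1. Cspg4, the NG2 proteoglycan that marks precursors and pericytes, was at 14.3 ± 6.70 and 18.5 ± 3.47 CPM. The median log2 fold change of the tested precursor genes was 0.25.

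Of 12 genes of newly formed oligodendrocytes 10 were tested, and Sirt2, a deacetylase gene, fell, with a log2 fold change of -0.30 ± 0.09 (edgeR adjusted p = 0.0466). It went from 137 ± 11.6 to 112 ± 12.3 CPM (SD, n = 5 each), and lost the call in 8 of the 10 fits without 1 library (adjusted p up to 0.148), with all 13 libraries and with scaling to total counts. Per length, Sirt2 was at 27.3 CPM per kilobase in CON, beside 0.809 for Bcas1 and 0.191 for Enpp6. All 12 microglial genes fell as well, and which cells the RNA of Sirt2 and Tns3 came from was not tested. Tns3, an adhesion gene, was at 133 ± 20.8 and 118 ± 21.5 CPM. Tcf7l2, a transcription factor of the Wnt pathway, was at 33.5 ± 2.58 and 35.8 ± 2.99 CPM, and neither passed. Their list had a median log2 fold change of 0.10.

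Among 20 myelin genes, 17 were tested and 3 rose: Mal, Tspan2 and Pllp, which encode membrane proteins of myelin that other tissues also make. Over all genes 5.75% rose. Of the 17, 8 stood at an unadjusted p under 0.05, against 22.7% of all genes, and 5 passed with DESeq2 and 4 with limma-voom. Mal was at 9.76 to 13.8 CPM in CON and 21.1 to 27.5 CPM in MIA, a log2 fold change of 1.01 ± 0.13 (edgeR adjusted p = 0.000473). Tspan2 was at 8.70 to 18.8 CPM in CON and 21.5 to 30.0 CPM in MIA (1.07 ± 0.18; edgeR adjusted p = 0.00208). Pllp was at 1.59 to 4.65 CPM in CON and 5.20 to 13.2 CPM in MIA (1.36 ± 0.36; edgeR adjusted p = 0.0265). In each of the 3 genes all MIA libraries lay above all controls. Mal and Tspan2 kept the call in all 10 fits without 1 library and with all 13 libraries, and Pllp lost it in 5 of the 10 fits (without CON 2, CON 3, MIA 2, MIA 3 or MIA 5) and with all 13. With all 13 except CON 1 and CON 2, Tspan2 passed, and Mal and Pllp did not. The most abundant genes of the list did not pass: Cd9, a tetraspanin gene of many cell types, at 698 ± 173 and 496 ± 89.5 CPM, Car2, carbonic anhydrase, at 35.1 ± 16.1 and 71.2 ± 17.1 CPM, and Cldn11, of myelin tight junctions, at 25.4 ± 15.6 and 32.4 ± 12.3 CPM (SD, n = 5 each). Car2 passed as higher with DESeq2, with limma-voom, with the replicate block and without CON 1. Cd9 passed as lower with DESeq2, without CON 1, and without both CON 1 and CON 2. In the fit without both CON 1 and CON 2, Cldn11 passed as higher. Opalin, a late myelin gene, had 0 counts in all 13 libraries. The 17 tested genes had a median log2 fold change of 0.77.

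A list of 12 genes of signalling to the lineage held ligands, receptors and regulators such as Id2. Of these 11 were tested, and Notch1 and its ligand gene Jag1 rose, against 5.75% of all genes. Notch signalling holds precursors back from maturing and is also active in blood vessels. Jag1 was at 5.86 to 7.21 CPM in CON and 11 to 19.9 CPM in MIA, with all MIA libraries above all controls (log2 fold change 1.23 ± 0.17; edgeR adjusted p = 0.000708). With all 13 libraries the log2 fold change of Jag1 was 0.84 (edgeR adjusted p = 0.0471), and with all 13 except CON 1 and CON 2 neither Jag1 nor Notch1 passed. Notch1 went from 47.0 ± 10.3 to 76.1 ± 13.2 CPM (SD, n = 5 each; 0.70 ± 0.16; edgeR adjusted p = 0.0140), and did not pass with all 13 libraries (adjusted p = 0.153). The ligands of the PDGF receptors did not pass: Pdgfa, the main ligand of PDGFRA, was at 6.95 ± 3.12 and 6.83 ± 1.08 CPM and Pdgfc at 4.53 ± 4.56 and 6.00 ± 2.39 CPM. Igf1, a growth factor that microglia supply, was at 180 ± 49.6 and 141 ± 24.2 CPM, and Id2, an inhibitor of helix-loop-helix factors, at 84.1 ± 23.1 and 102 ± 8.78 CPM; neither passed with all 10 retained libraries. Without CON 1, Pdgfc passed as higher and Igf1 as lower, and Igf1 also passed as lower without both CON 1 and CON 2. Endothelial genes also rose, with a summed level of 2562 to 4335 CPM in the retained MIA libraries against 896 to 1422 CPM in CON. Their part in the differences in Jag1, Notch1 and the 3 myelin genes was not tested.

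**Figure D5:**
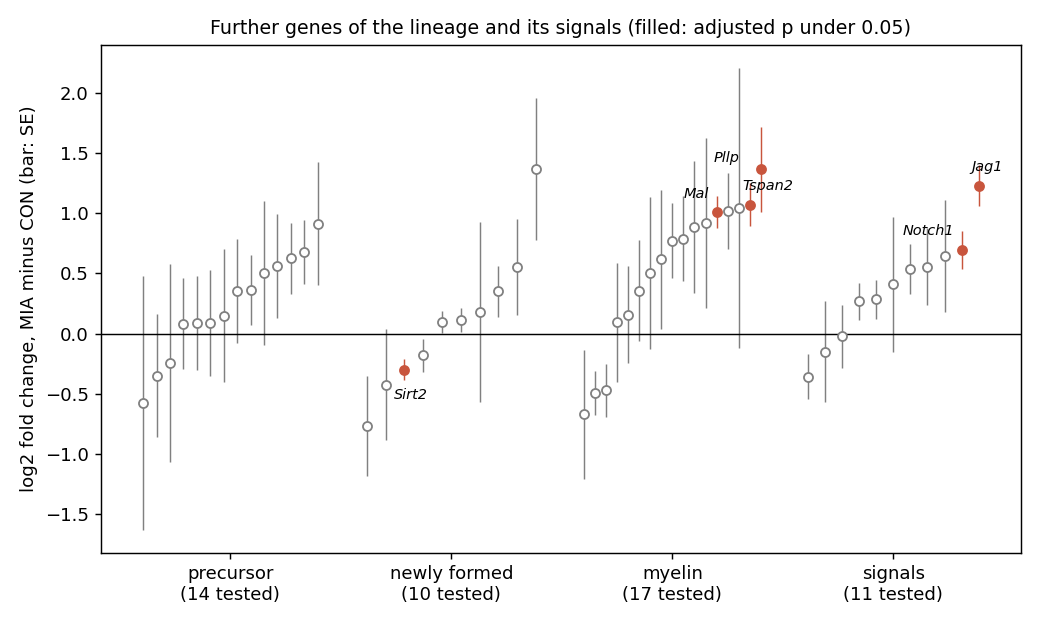
Log2 fold change, MIA minus CON, with its SE (y axis) for the tested genes of 4 further lists, ordered by value within each list (x axis). Filled points passed edgeR at an adjusted p of 0.05. They are Sirt2, below 0, and Mal, Tspan2, Pllp, Jag1 and Notch1, above 0.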

How the data were processed

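The 13 libraries of bead-sorted mouse brain cells were made by a Smart-Seq2 variant, which reads poly(A) RNA without strand, per the labels' protocols. The deposited table gives unnormalized expected counts, 1 row a gene; RSEM, STAR and DESeq2 are named without versions or roles, per the submitters' processing notes, and the sources used here do not give the build. Counts were rounded. Of 55487 gene IDs, 55141 matched a symbol. CPM were scaled by TMM over the 13 libraries; log2 CPM used a prior count of 2. The test was edgeR 4.0.16 in R 4.3.3 (filterByExpr, TMM, quasi-likelihood, robust; terms: group) on 15511 genes of the 10 retained libraries, checked on simulated data; the SE is the log2 fold change divided by the square root of F. Alternatives were DESeq2 1.42.0, limma-voom 3.58.1, other scalings, filters and library sets, and a replicate block. Without strand, exons shared with genes on the opposite strand are uncertain: Cnp shares 154 bases with Dnajc7, Gpr17 188 with Lims2, Bcas1 440 with Bcas1os1, and Pdgfra and Olig1 share bases with predicted genes. The members, the lists and the rule for named genes were chosen with earlier results of these data known. That rule took all members, the listed genes that passed, the most abundant of each list, and for each member the 3 genes most correlated with it. Some genes it takes are not reported here. The rule's genes of the choroid plexus (0 of 5 passed with edgeR), red blood cell (0 of 5) and dissociation lists (0 of 11; 0 in each at an unadjusted p under 0.05 and with the other tools) are given as counts only.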

Additional observations from a re-analysis of the deposited data

How the results depend on the processing

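Over 21 alternatives Pdgfra kept its direction in all and its call in 20. The count of the 9 genes that passed was 1, and it was 2 with DESeq2 (Olig1 and Pdgfra), 0 with all 13 libraries except CON 1 and CON 2, and 1 to 2 in fits without 1 library. Bcas1 turned to -0.0728 with limma-voom, -0.0138 with the replicate block, -0.26 without CON 1 and CON 2, and as low as -0.12 (without CON 2), -0.09 (without MIA 2) and -0.02 (without MIA 3) among fits without 1 library. The 6 further genes that passed became 3 with all 13 libraries, 1 (Tspan2) with all 13 except CON 1 and CON 2, and 4 to 12 without 1 library, the 12 being without CON 1. Over all genes 1602 passed, against 659 with all 13 libraries, 90 with all 13 except CON 1 and CON 2, and 1037 (without MIA 5) to 2263 (without CON 1); without MIA 4 it was 1057. The causes were not tested. Scaling to total counts moved the split from 892 higher and 710 lower to 1036 and 496. Replicate numbers are shared by the groups, but their deviations correlated by only 0.06 to 0.30, and 1 of 5 control libraries went best with its own number. With the replicate block 1524 genes, 1 member and 7 further genes passed. At these depths Sox10 and Enpp6 rested on 1 to 39 and 5 to 111 counts per library.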

Other observations

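A split noticed after the values were seen sets CON 1 and CON 2 apart from the other 3 retained controls. In 5 of the 9 genes the 2 sides did not overlap, with CON 1 and CON 2 lower in Gpr17, Bcas1, Enpp6 and Mbp and higher in Cnp. The share of all genes parted in this way is not given here, so the 5 are not read as particular to the lineage. Enpp6, of newly formed oligodendrocytes, was at 0.173 and 0.473 CPM in CON 1 and CON 2 and at 1.6 to 2.24 CPM in CON 3, CON 4 and CON 5. Cnp, of myelin, was at 134 and 103 CPM there and at 84.1 to 94.8 CPM in the other 3. The summed level of 11 immediate early and heat-shock genes was 2380 and 2170 CPM in these libraries and 8370 to 9600 CPM in the other 3, and that of 5 red blood cell genes 61.3 and 80.2 CPM against 1160 to 2190 CPM. Gpr17 was at 2.69 and 0.582 CPM against 4.14 to 9.37 CPM, and Bcas1 at 2.55 and 1.35 CPM against 3.28 to 4.47 CPM. Mbp, the other myelin gene, lay the opposite way to Cnp, at 29.2 and 26.8 CPM there and at 32.1 to 35.1 CPM in the other 3. Olig1, Olig2, Sox10 and Pdgfra did not follow this split, with Pdgfra at 15.1 CPM in CON 1 and 7.83 CPM in CON 2, with 13.2 to 16.2 CPM in the other 3. The excluded CON 6 had 1.69 CPM of Enpp6, 87.3 CPM of Cnp and 8800 CPM in the stress-gene sum, each within the range of CON 3 to CON 5. These values were not tested.

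CON 1 also held the most RNA of the 15 further precursor genes among the controls, 289 CPM in sum against 101 to 146 CPM in the other 4, and the most of the 10 astrocyte genes, 957 against 309 to 621 CPM. MIA 2, highest in 8 of the 9 members, had the most of the further precursor genes in its group, 319 CPM, and of the neural progenitor genes, 155 CPM.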
